A study of Mus musculus with 12 samples.

Results

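DNA repair genes were followed through 12 single cells of mouse 2-cell embryos. The 39 genes were listed by name, with earlier results of these data known. Every array probe whose gene name, or whose RefSeq accession, belonged to a listed repair gene was taken, without regard to its values. Probes were found for 38 of them, 67 probes in all, out of 22409 named genes on the array. The kinase gene Atr was matched to no probe and was not analysed here.

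Embryos came from naturally mated CF-1 mice, were flushed from the oviduct about 36 h post coitus and were split into their 2 blastomeres, so that the cells of an embryo are twins. Experiment 2 held pairs D, G and H, and experiment 1 held pairs D, I and L, with 2 cells for each of the 3 embryos (n = 6 cells per experiment). Pair D of experiment 2 and pair D of experiment 1 are different embryos. The labels number the cells of a pair 1 and 2 and do not say what the numbers mean, and no cell was treated. Amplification in 2 rounds preceded hybridisation, so levels are relative to each array and say nothing of the amount of RNA in a cell.

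Repair pathways divide the work by lesion. Double-strand breaks are signalled by the kinases Atm and Chek2 and stalled replication by Atr and Chek1. Breaks are mended by homologous recombination (Brca1, Brca2 and their partners) or by end joining (the Ku proteins Xrcc5 and Xrcc6, and ligase 4 with Xrcc4). Fanconi proteins deal with crosslinks and Msh and Pms2 proteins with mispaired bases. Xp and Ercc proteins excise bulky lesions, and glycosylases such as Ung and Ogg1, with Apex1, Xrcc1 and Lig3, replace single damaged bases. The sliding clamp Pcna and ligase 1 serve both replication and several repair routes. The 2-cell embryo starts with proteins and transcripts stored in the oocyte while its own genome is being switched on.

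Properties of the arrays bear on all comparisons of the experiments. The arrays of experiment 2 were scanned in the dye Cy3 and those of experiment 1 carried their signal in Cy5, although labelled Cy3, on other slides, so experiment, dye and slide cannot be told apart. In the Cy3 channel of experiment 1, 0 of the repair probes stood above background on any array. Cells of both experiments held oocyte and 2-cell transcripts, with 15 to 17 of 17 measured markers well above background in experiment 2 and 14 to 16 in experiment 1. Markers of 3 other tissues were higher in the cells of experiment 1. The summed level of 10 stromal and muscle markers was 0.574 to 1.07 times the scaling signal in cells of experiment 2 and 11.6 to 83.8 times in cells of experiment 1, and all 9 that were tested were called lower in experiment 2. Of these 10 markers, 4 to 8 were well above background in cells of experiment 2 and 9 to 10 in cells of experiment 1. Each marker counts at least the common floor of 0.0574 described below, so the lowest sums are set by that floor. For 10 oviduct markers the sums were 0.577 to 1.98 in experiment 2 and 8.47 to 61.3 in experiment 1, with 5 of 10 tested called lower in experiment 2. For 10 blood and macrophage markers they were 0.614 to 1.08 in experiment 2 and 6.32 to 263 in experiment 1, with 2 of 8 tested called lower in experiment 2. For 10 cumulus and granulosa markers the sums overlapped, at 0.583 to 1.46 in experiment 2 and 0.574 to 1.13 in experiment 1, and Fshr was not well above background on any array. The macrophage marker Csf1r was not above background in experiment 2, nor the leukocyte marker Ptprc in experiment 1. The part of these transcripts in any difference between the experiments was not tested.

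Repair probes were detected more often than the array as a whole. A probe counted as detected on an array when the scanner software flagged it well above the local background. Of the 67 repair probes, 26.9% were detected in all 12 cells and 49.3% in at least 6, against 14.2% and 40.6% of all 41174 probes on the array. At the other end, 5.97% of the repair probes were detected in no cell, against 15.6% of all probes. Each gene is given below by 1 probe, the brightest of those tested or, if none was tested, the brightest.

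In every cell, 17 of the 38 genes were detected. For homologous recombination these were Brca2, the helicase gene Brip1, Rad52 and Xrcc3, 4 of 9 genes. The replication checkpoint kinase Chek1 was the single kinase so detected, of 3 measured. The set held 2 of 3 Fanconi genes, Fanca and Fancc of the core complex, 2 of 3 mismatch genes, Msh3 and Msh6, and 2 of 7 nucleotide excision genes, Ercc1 and Ercc4, which form 1 nuclease. It also held 4 of 7 base excision genes, Xrcc1, Ogg1, Ung and Apex1, and both replication factors, Lig1 and Pcna. None of the 4 end-joining genes was detected in every cell: Xrcc5 (Ku80) was detected in 10, Lig4 in 9, Xrcc4 in 5 (8 by any of its probes) and Xrcc6 (Ku70) in 4. Whether pathways differ in detection was not tested.

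Other central genes were at the edge of detection. Atm was detected in 4 cells (6 by any of its probes), Rad50, of the break-sensing complex, in 3, Parp1, which senses DNA nicks, in 3, its relative Parp2 in 5, and the recombination motor gene Rad54l in 5. Fancd2, the Fanconi effector, was detected in 1 cell by the probe used here and in 4 cells by either of its probes. Rad50, Parp1, Parp2, Xrcc6 and Chek2 were detected in no cell of experiment 1. Arrays of experiment 1 detected fewer probes of any kind, 21.9 to 41.5% per cell against 30.9 to 78.7% in experiment 2. The share of all probes detected in no cell of experiment 1 is not given here, so this absence is not read as particular to these genes. Chek2, the kinase downstream of Atm, was detected in all 6 cells of experiment 2. On the scale with a common floor described below, its highest cell there was at -3.43 and all 6 cells of experiment 1 lay at the floor, and the difference did not pass the test (adjusted p = 0.316 in limma). Parp2 was detected in 5 of 6 cells of experiment 2 and was not tested, because fewer than 6 cells held it above background.

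**Figure D1:**
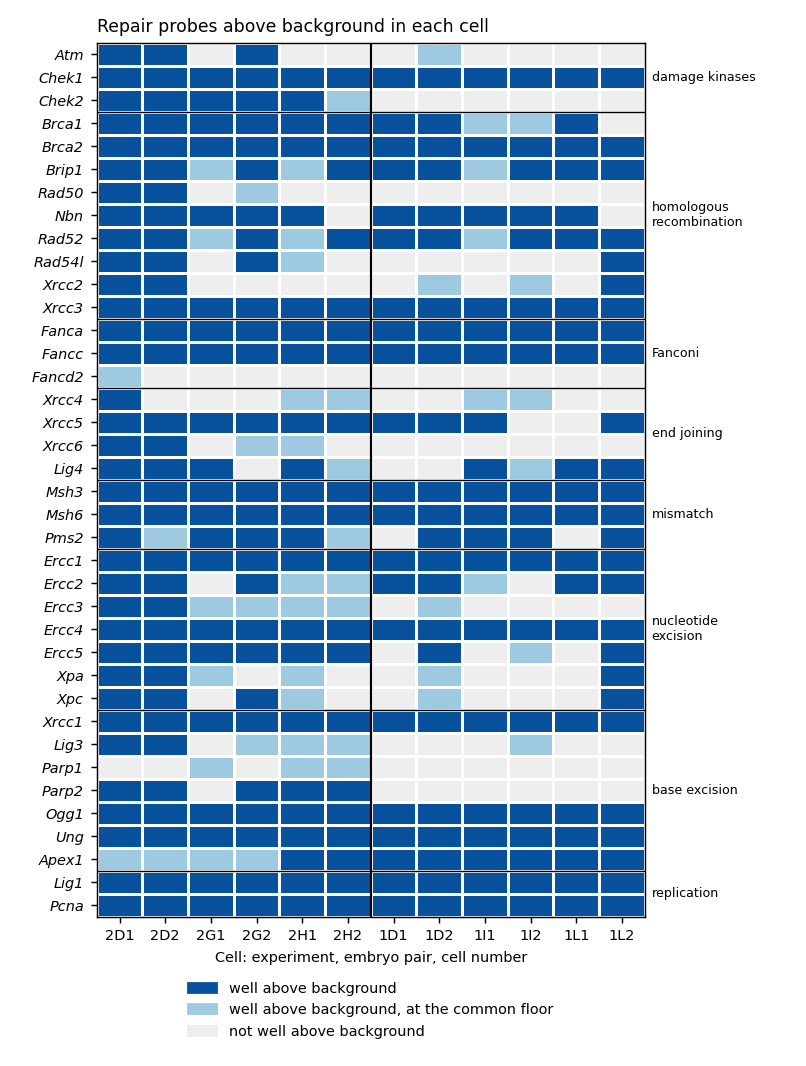
Detection of 38 repair genes (rows, by pathway, 1 probe each) in the 12 cells (columns: experiment 2 left of the line, experiment 1 right of it; each label gives experiment, pair and cell number). Dark blue marks a probe well above background, light blue the same at or under the common floor, grey not above background. The bands without gaps are the 17 genes detected in every cell, and none of the end-joining rows is without a gap.

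The number of genes detected differed between arrays. By any probe, pair D of experiment 2 had 37 of the 38 genes detected in each cell, pair G had 27 in cell 1 and 34 in cell 2, and pair H 36 and 30. Pair D of experiment 1 had 21 in cell 1 and 28 in cell 2, pair I had 24 and 26, and pair L 21 and 28. Over all probes of the array, 30.9 to 78.7% were detected per cell in experiment 2 and 21.9 to 41.5% in experiment 1. Repair probes were above that share in each of the 12 cells, at 47.8 to 86.6% in experiment 2 and 32.8 to 50.7% in experiment 1.

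**Figure D2:**
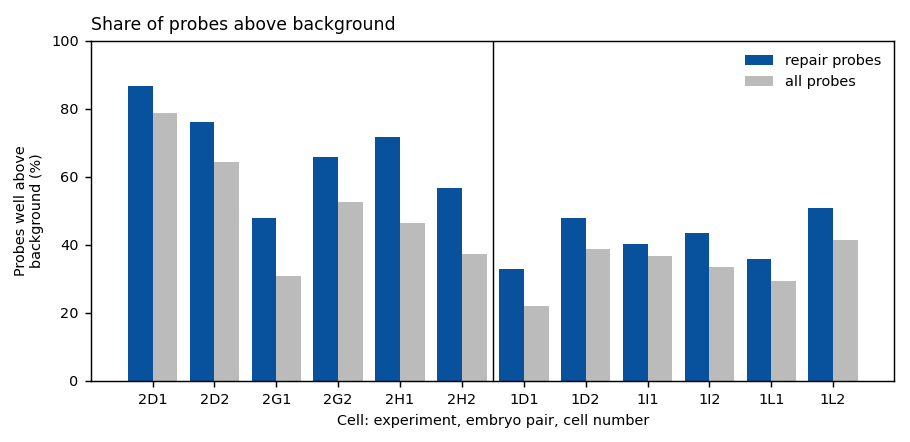
Share of probes well above background (percent) in each cell, for the 67 repair probes (dark bars) and all 41174 probes (grey bars), with the 6 cells of experiment 2 left of the line and those of experiment 1 right of it. The repair share lies above the grey bar in each cell, and both are highest in pair D of experiment 2.

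Probes of the same gene often disagreed in detection. Brip1 was detected in 12 cells by one probe and in 0 by the other, Ercc4 in 12 and 3, Brca2 in 12 and 6, Fanca in 12 and 5, Rad52 in 12 and 5, and Brca1 in 11 and 2. For Msh3, 1 of 4 probes was detected in 12 cells and the others in 1 to 3. Both probes of Ogg1 were detected in 12 cells, and the probes of Chek1 in 12 and 11.

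Promoter sequences of 32 of these genes were listed by RefSeq (GRCm38.p6, 250 bases before to 50 after each gene start). The E2F-type motif TTTCCCGC, on either strand, was found at 4 of the 32 genes (12.5%) and at 1.24% of all 27025 genes in the table, counting a gene once over all its starts. The related TTTGGCGC was found at 1 of the 32 (3.13%) and at 0.585% of all genes. The sites are shown because E2F factors are known to drive replication and repair genes in dividing cells; a match is only a match of letters. In each line 10 bases lie on either side, capitals mark the motif (as TTTCCCGC or TTTGGCGC, or its reverse complement), and the sequence is read in the direction of the gene.
Chek2, chr5:110839821-110839848, + strand: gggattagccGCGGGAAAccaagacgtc
Brca2, chr5:150522443-150522470, + strand: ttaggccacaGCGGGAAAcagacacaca
Xrcc6, chr15:82016313-82016340, + strand: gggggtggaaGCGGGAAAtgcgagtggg
Msh6, chr17:87975055-87975082, + strand: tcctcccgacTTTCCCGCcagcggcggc
Msh3, chr13:92355188-92355215, - strand: tgccgtcaagTTTGGCGCgaaatcgcag
These genes did not share a level of detection: Brca2, Msh6 and Msh3 were detected in all 12 cells, Chek2 in 6 and Xrcc6 in 4. The CCAAT motif (CCAAT, either strand) occurred at 62.5% of the repair genes and 41.1% of all genes, and the GC box (GGGCGG, either strand) at 68.8% and 38.2%.

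The first comparison set experiment 2 against experiment 1. Levels are the log2 ratio of the signal to its array's 75th percentile, so 0 is the level of that percentile, and levels of different probes were not compared. Values under a common floor of -4.12 were raised to it. The 29 repair genes detected in at least 6 cells were among 16694 probes tested with limma, with the embryo as a random block, and a Benjamini-Hochberg adjusted p under 0.05 was called. Pcna was higher and Lig1 lower in experiment 2, and these were the 2 members called of 29 (6.90%), beside 8.1% of all probes tested (3.95% higher and 4.15% lower in experiment 2). The members' share is near that background. The median difference was 0.31 over the 29 genes and 0.19 over all tested probes, with 19 genes (65.5%) higher and 10 lower, against 64.7% of all probes higher. Among genes detected in every cell, 8 were higher and 9 lower, with a median of -0.08 against 0.06 over all such probes. With normexp background correction 9 of 29 were higher, with a median of -0.49 against -0.76 over all tested probes. Chek2 passed the filter on detection through experiment 2 alone. At an unadjusted p under 0.05 there were 7 genes, 24.1% of those tested, against 19.2% of all probes.

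Pcna, the clamp that holds DNA polymerase on its template (chromosome 2, 132249286 to 132253180 in GRCm38.p6), was higher in experiment 2. In experiment 2 its level was 0.27 in cell 1 and -0.69 in cell 2 of pair D, 0.51 and then 0.71 for pair G, 0.31 and then -0.15 for pair H. In experiment 1 pair D had levels of -1.57 and -0.97, pair I of -1.96 and -0.69, pair L of -1.19 and -1.35. Cell 2 of pair D in experiment 2 and cell 2 of pair I in experiment 1 nearly met, and the ranges did not overlap. The mean was 0.16 ± 0.50 in experiment 2 and -1.29 ± 0.45 in experiment 1 (SD, n = 6 cells each). The difference was 1.45 ± 0.35 log2 units (SE), 2.73-fold, with an adjusted p of 0.0260 in limma. Without cell 1 of pair L in experiment 1 or cell 1 of pair G in experiment 2, neither Pcna nor Lig1 was called, and without cell 1 of pair D in experiment 1 Pcna was not. Neither was called with scaling over all probes, with normexp background correction, with lower floors or with the deposited values.

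Lig1, which seals nicks between Okazaki fragments and in excision repair (chromosome 7, 13277175 to 13311426), was lower in experiment 2. In experiment 2 pair D had levels of -3.35 and -2.84, pair G of -3.28 and -2.96, pair H of -3.31 and -3.42. In experiment 1 pair D had levels of -2.54 and -2.15, pair I of -2.48 and -2.55, pair L of -1.49 and -0.88. The ranges did not overlap, and pair L of experiment 1 stood highest. The mean was -3.19 ± 0.23 in experiment 2 and -2.02 ± 0.69 in experiment 1 (SD, n = 6 each), a difference of -1.18 ± 0.31 (SE; adjusted p = 0.0404 in limma), 2.26-fold lower. With embryo means in place of cells Lig1 was not called (adjusted p = 0.165 in limma), and Pcna was (adjusted p = 0.0388). With the slide as a random block Lig1 was not called either (adjusted p = 0.138). Lig1 alone was lost without cell 2 of pair D or cell 1 of pair I in experiment 1, and without cell 1 of pair D, cell 2 of pair G or either cell of pair H in experiment 2. Pcna and Lig1 were the 2 of 29 genes whose ranges did not overlap (6.90%), against 7.66% of all tested probes.

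**Figure D3:**
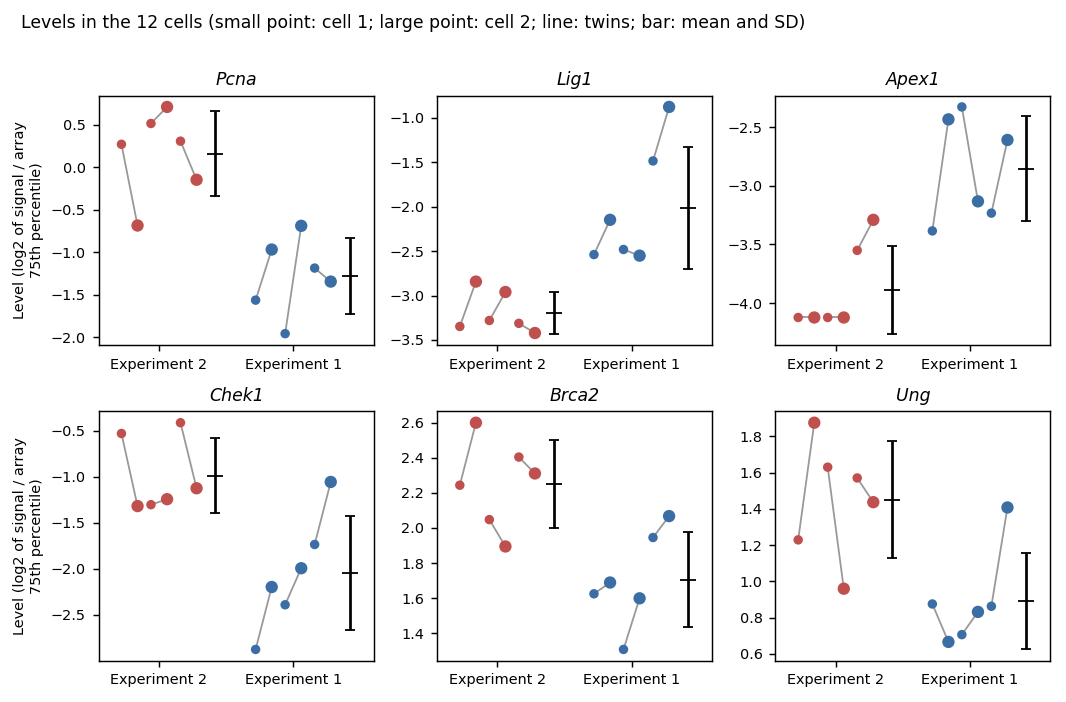
Levels (log2 of signal over the array's 75th percentile) of 6 repair genes in single cells, experiment 2 left in red and experiment 1 right in blue. Grey lines join the twins of an embryo, small points are cell 1 and large points cell 2, and bars give the mean and SD of 6 cells. Pcna and Lig1 show ranges that do not overlap, and the other 4 genes did not pass the test.

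The sequences just upstream of both genes are shown because these are the called members, with the CCAAT and GC box motifs of either strand in capitals and the E2F-type motifs sought as well. The 250 bases before the Pcna start, chr2:132253181-132253430 on the - strand, hold a CCAAT match 87 bases and GC boxes 203 and 116 bases before the start.
Pcna: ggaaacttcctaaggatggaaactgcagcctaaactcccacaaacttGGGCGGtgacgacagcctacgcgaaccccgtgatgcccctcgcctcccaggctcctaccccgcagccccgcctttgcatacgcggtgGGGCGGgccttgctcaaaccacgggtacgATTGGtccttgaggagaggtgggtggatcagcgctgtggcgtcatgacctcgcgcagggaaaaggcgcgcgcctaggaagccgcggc
The 250 bases before the outermost of 3 listed Lig1 starts, chr7:13276925-13277174 on the + strand, hold none of these motifs, while GC boxes lie in the windows of the other starts.
Lig1: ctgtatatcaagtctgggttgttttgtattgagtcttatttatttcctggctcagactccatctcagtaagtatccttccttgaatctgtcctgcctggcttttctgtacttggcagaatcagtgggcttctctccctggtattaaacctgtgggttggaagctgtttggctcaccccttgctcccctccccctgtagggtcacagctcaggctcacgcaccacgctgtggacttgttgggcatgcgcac

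Chek1 and Apex1 came next in size and did not pass. Chek1, the kinase that slows the cycle when replication stalls, was at -1.32 to -0.41 in experiment 2 (median -1.18) and at -2.88 to -1.06 in experiment 1 (median -2.09). The difference was 1.05 ± 0.35 (SE; adjusted p = 0.0961 in limma), and cell 2 of pair L in experiment 1 overlapped the other experiment. Its second probe gave 1.08 (adjusted p = 0.167). Apex1, the endonuclease that cuts at abasic sites, was at -4.12 to -3.29 (median -4.12) in experiment 2 and at -3.39 to -2.33 (median -2.87) in experiment 1. Its difference of -1.04 ± 0.30 (SE) had an adjusted p of 0.0562, and 4 of the 6 cells of experiment 2 lay at the floor although they were above background. Over other settings the difference ranged from -1.34 with normexp to -0.50 with scaling over all probes.

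Among the other genes detected in every cell, Brca2 was at 1.89 to 2.60 (median 2.28) in experiment 2 and at 1.31 to 2.07 (median 1.66) in experiment 1. Its difference was 0.54 ± 0.18 (SE; adjusted p = 0.0986 in limma). Ung, which removes uracil from DNA, was at 0.96 to 1.88 in experiment 2 and at 0.67 to 1.41 in experiment 1, a difference of 0.56 ± 0.23 (adjusted p = 0.198). Fancc and Fanca differed by 0.59 ± 0.66 and 0.51 ± 0.36 (adjusted p = 0.648 and 0.486). Ercc4, the nuclease subunit that cuts beside bulky lesions, was at -0.54 to 0.86 in experiment 2 and at 0.49 to 1.46 in experiment 1, a difference of -0.62 ± 0.33 (adjusted p = 0.350). Xrcc3, Xrcc1 and Msh3 differed by -0.57 ± 0.57, -0.39 ± 0.36 and -0.35 ± 0.30 (adjusted p = 0.616, 0.595 and 0.557). For each of these genes the ranges of the experiments overlapped.

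By pathway, among the 17 genes detected in every cell, the kinase gene Chek1 and the Fanconi genes Fanca and Fancc had positive differences. Homologous recombination was split, with Brca2 and Brip1 positive and Rad52 and Xrcc3 negative, and so was mismatch repair, with Msh6 positive and Msh3 negative. Both nucleotide excision genes, Ercc1 and Ercc4, were negative, as were 3 of the 4 base excision genes, Ung being the exception. Over all 7 tested nucleotide excision genes, in contrast, 5 were positive and 2 negative. The differences of Ercc1 and Brip1 were small beside their SE, at -0.08 ± 0.63 and 0.02 ± 0.58. The direction of 12 of the 29 genes turned under at least 1 other setting (Brca1, Brip1, Chek2, Ercc1, Ercc2, Ercc3, Lig3, Lig4, Pms2, Xpa, Xpc and Xrcc5), and none of those 12 was called in this test.

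**Figure D4:**
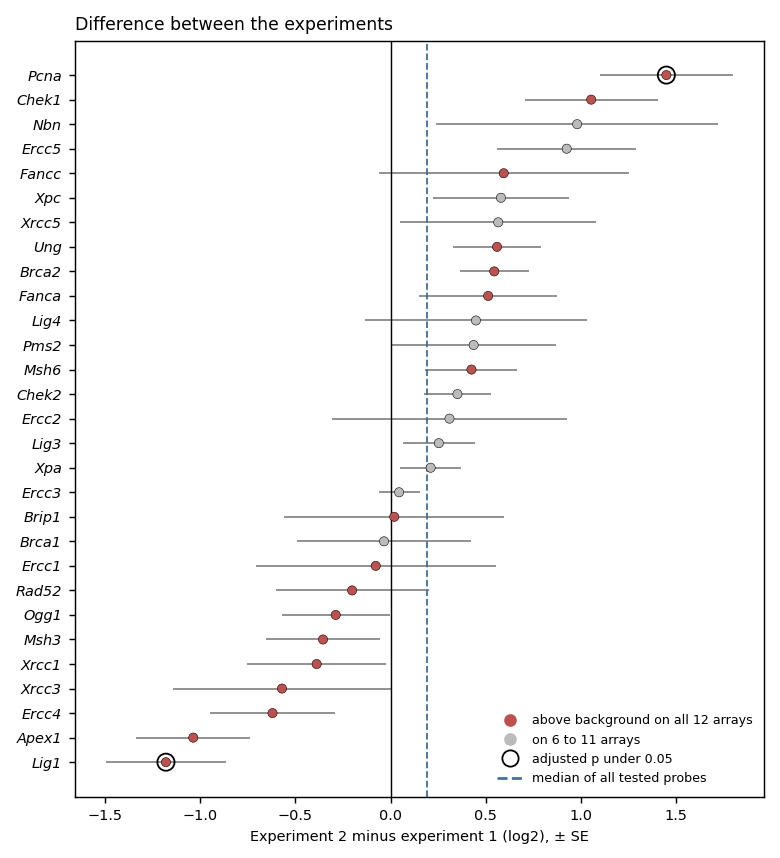
Difference between experiment 2 and experiment 1 (log2, with SE) for the 29 tested repair genes, in order of size. Red points are genes detected in all 12 cells and grey points those detected in 6 to 11; circles mark Pcna and Lig1, and the dashed line is the median of all tested probes, 0.19.

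A wider set of 112 other repair genes gave a similar share. Of 87 tested, 8 were called (9.20%), 5 higher and 3 lower in experiment 2. Nhej1, an end-joining partner of Xrcc4, was lower by 3.53-fold (log2 difference -1.82 ± 0.27, SE; adjusted p = 0.00207 in limma), and Trp53, encoding p53, was lower by 2.97-fold (-1.57 ± 0.37; adjusted p = 0.0233). Tdp2, which frees DNA ends from topoisomerase, was higher by 2.92-fold (1.55 ± 0.36; adjusted p = 0.0233) and Rbbp8, encoding the end-resection factor CtIP, by 2.50-fold (1.32 ± 0.27; adjusted p = 0.0122). By list, called genes were 2 of 12 for damage kinases and checkpoint, 3 of 20 for homologous recombination, 1 of 8 for Fanconi, 1 of 5 for end joining and 1 of 15 for base excision. They were 0 of 5 for mismatch repair, 0 of 14 for nucleotide excision and 0 of 8 for translesion and direct reversal. In replication licensing 5 of 19 tested genes and in mitotic kinases and checkpoint 5 of 15 were called, all higher in experiment 2, with medians of 0.66 and 0.89 against 0.31 for the repair genes. Whether these lists differ from the repair genes was not tested, and the lists were chosen with earlier results of these data known.

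The second comparison asked whether repair transcripts differed between the embryos of an experiment by more than between twins. Twins shared a slide, and in each experiment pair D lay on a slide apart from the other embryos. For pair D, embryo and slide cannot be told apart. In experiment 1, the header of cell 1 of pair I named another extraction protocol than those of its twin and the other cells. Between the twins of that pair, cell and protocol cannot be told apart. In limma's moderated F test on 4 contrasts of embryos, 0 of 29 repair genes were called, beside 1.4% of all probes. At an unadjusted p under 0.05 there were 10 genes (34.5%), against 29.8% of all probes. With 2 cells per embryo, a count of 0 does not show that embryos were alike. The smallest adjusted p values in limma were 0.0558 for Xpc, 0.0858 for Xpa, 0.0900 for Lig3 and 0.0944 for Msh6.

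Xpc, which finds distorted DNA, stood in experiment 2 at -2.41 and -2.42 in the twins of pair D, with pair G at -4.12 and -3.52 and pair H at the floor in both cells. In experiment 1 it was at the floor in 5 cells and at -3.59 in cell 2 of pair L. Xpa, a scaffold of the excision complex, was at -3.49 and -3.48 in pair D of experiment 2, and none of the other 10 cells lay above -4.11. Lig3, the ligase partner of Xrcc1, was at -3.19 and -3.54 in pair D of experiment 2 and at the floor in the other 10 cells. For these 3 genes pair D of experiment 2 was highest, the embryo whose arrays had the largest share of probes above background (78.7 and 64.3%). Each gene was detected in 6 cells, the fewest that the filter allows, and both cells of that pair were among them. They thus passed the filter only through the embryo in which they were highest, and most of their other cells lay at the floor. The part of that embryo in the result was not tested. Msh6, which recognises base mismatches, was detected in every cell and had close twins: in experiment 2 pair D had levels of 1.04 and 0.92, pair G of 0.16 and 0.17, pair H of 0.83 and 0.84. In experiment 1 pair D had levels of 0.38 and 0.92, pair I of 0.03 and 0.16, pair L of -0.17 and 0.09. Within experiment 2 alone, Msh6 and Xpa were the members called (adjusted p = 0.0459 and 0.0450 in limma). Without both cells of pair D of experiment 2, 0 of the 24 members still tested were called. Xpc, Xpa and Lig3 no longer passed the filter there and were not tested, so that count says nothing of them. With normexp the count was 8. The share of all probes called under these settings is not given here, so the counts are not read as a result about repair genes.

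The third comparison was between the cells of an embryo. Cell 2 against cell 1, with the embryo as a fixed block, gave 0 calls among the 29 repair genes and 0 among all probes in limma, with 3 genes (10.3%) and 4.41% of all probes at an unadjusted p under 0.05. The smallest unadjusted p values in this limma fit were 0.0230 for Brip1, 0.0251 for Fancc, 0.0429 for Ercc5 and 0.0521 for Ercc4, each with an adjusted p of 0.674 or more. Brip1 differed by 0.94 ± 0.32 (SE) and had a positive difference in 5 of 6 embryos. Fancc differed by 1.01 ± 0.35, positive in 5 of 6, Ercc5, which cuts on the side of a lesion opposite to Ercc4, by 0.40 ± 0.16, positive in 5 with no difference in pair I of experiment 1, and Ercc4 by 0.45 ± 0.19, positive in 5 of 6. In all 6 embryos, 0 of the 29 genes were higher in cell 2, beside 0.737% of all tested probes.

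Twin differences were also taken irrespective of cell number. The absolute log2 difference, taken as the median over the 6 embryos, had a median of 0.40 over the 29 tested genes and 0.34 over all tested probes. Among genes detected in every cell the medians were 0.49 for 17 repair genes and 0.48 for 5858 probes. Brip1 was farthest apart of the tested genes, with a median of 1.11: cell 2 exceeded cell 1 by 0.97 (pair D), 1.63 (pair G) and 1.12 (pair H) in experiment 2 and by 1.53 (pair I) and 1.11 (pair L) in experiment 1, where pair D had -0.73. It was the 1 repair gene over 1.5-fold apart in all 6 pairs (3.45% of those tested), beside 0.827% of all probes. In 3 of its 12 cells Brip1 lay at the floor.

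Among the 17 repair genes detected in every cell, Ercc1, Rad52 and Fancc followed with median absolute differences of 1.02, 0.84 and 0.80, and Chek1 and Fanca with 0.68 and 0.59. Ercc1, partner of Ercc4 in its nuclease, differed by 0.07 to 1.41 between twins, with both signs in each experiment. Rad52, a strand-annealing protein, differed by 0.09 to 1.06, and 3 of its 12 cells lay at the floor. Fancc ranged from 0.11 in pair I to 2.51 in pair L, both of experiment 1. For Chek1, cell 2 was higher in 3 of 3 embryos of experiment 1, by 0.40 to 0.68, and in 1 of 3 of experiment 2. The interaction of cell number with experiment had an unadjusted p of 0.0142 for Chek1 and an adjusted p of 0.912 in limma, where 0 probes were called and 1 of 29 repair genes (3.45%) had an unadjusted p under 0.05, against 5.27% of all probes.

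Closest between twins among these 17 genes were Msh6 and Brca2, with medians of 0.13 and 0.14, then Ogg1 and Ercc4 with 0.19 and 0.27. Brca2 differed by 0.06 to 0.36 and Msh6 by at most 0.55 in any embryo, and neither reached 1.5-fold in any pair. Ogg1, which removes oxidised guanine, reached 0.79 in pair G of experiment 2. The largest single twin difference among these 17 genes was in Xrcc3, 2.80 in pair D of experiment 1, where cell 2 stood at -4.08 and cell 1 at -1.28; its other pairs differed by 0.20 to 0.59.

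**Figure D5:**
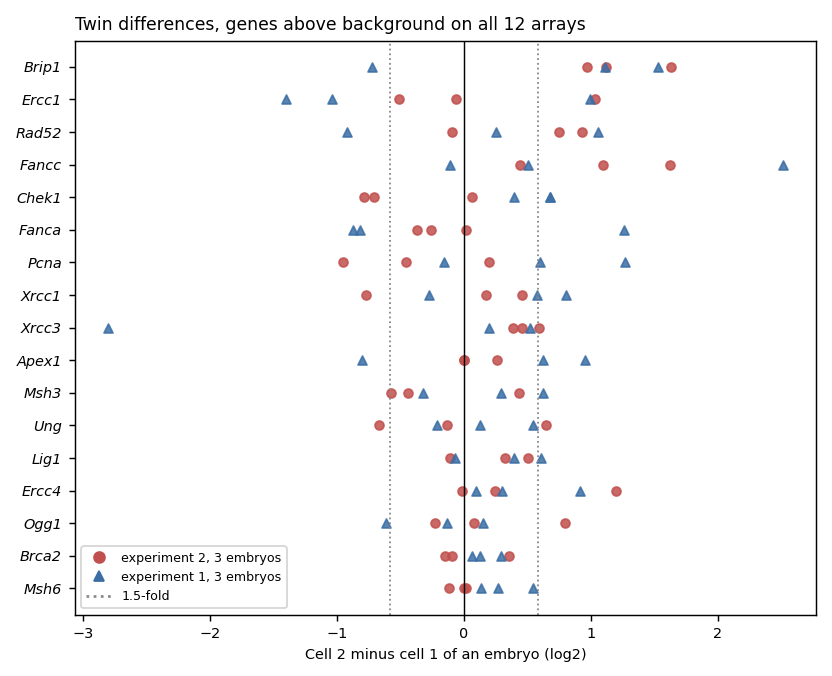
Cell 2 minus cell 1 (log2) in each of the 6 embryos for the 17 repair genes detected in every cell, ordered by the median absolute difference, with red circles for experiment 2 and blue triangles for experiment 1. Dotted lines mark 1.5-fold; Brip1 lies outside them in all 6 embryos, while Brca2 and Msh6 lie inside them in all 6.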

How the data were processed

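Per the file headers, the authors' scanner files hold intensity values extracted with Agilent Feature Extraction 9.1.3.1; the deposited value table holds intensity too and served as an alternative. Detection is the deposited well-above-background flag, 1 or 0 per spot. Analysis used the processed signal of the channel that held the RNA, without outlier spots, averaging spots of a probe. Signals were divided by each array's 75th percentile over the 5858 probes detected on all 12 arrays and floored at 0.0574. The tests took the 16694 probes that 6 or more arrays detected, after leaving out 18 without a value on an array. The fits used limma 3.58.1 in R 4.3.3; the consensus correlation of the embryo block was 0.35, and adjusted p values are limma's throughout. Names came from accessions (GRCm38.p6) for 22944 probes and from the files for 11765, while 6465 had none. Tables and plots were made with Python, numpy, scipy, pandas and matplotlib.

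Genes named with values were those called by a test, the 6 highest and 6 lowest experiment differences, the 6 largest and 4 smallest twin differences among genes detected on all 12 arrays, the 4 smallest p values between embryos and between cells, and at most 4 other repair genes per test. Members and lists were chosen with earlier results of these data known. The tests were also tried on simulated data with 100 probes changed 2-fold and 100 changed 4-fold. The experiment test called 21 and 58 of them, and the cell number test 21 and 61. With the change put in pair G of experiment 2, the embryo test called 0 and 0, and 153 of 200 probes changed 16-fold. In the trial with 16-fold changes, 5.92% of the unchanged probes had an unadjusted p under 0.05. In the embryo test of the data, 29.8% of all probes did. How many changes of these sizes the tests would call in the data was not tested. Genes that were not called may still differ. The labels do not say whether embryos of an experiment shared a mother, so p values refer to these samples only. The embryo test set embryos against the spread between twins. The cell number test used the spread of twin differences over embryos, and the experiment test the spread between cells with embryos as random blocks. The number of arrays limits the precision.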

Additional observations from a re-analysis of the deposited data

Results flagged for a closer look

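Of 40 sets of 6 cells (a gene detected in all cells of an experiment), 3 held a cell far from the others by Dixon's test at a critical ratio of 0.625; chance flags about 1 set in 20. Ercc4 in experiment 2 was at -0.54 in cell 1 of pair D, with the nearest cell at 0.61 (ratio 0.825). Ercc3 in experiment 2 was at -3.88 in cell 1 of pair D, the nearest at -4.10, with 4 of the 6 cells at the floor (ratio 0.922). Ung in experiment 1 was at 1.41 in cell 2 of pair L, with the nearest cell at 0.88 (ratio 0.718).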

How the results depend on the processing

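For the experiments, the 2 called members (Pcna, Lig1) became 0 with scaling over all probes, with normexp, with the floor per array, with the lower common floor and with the deposited values. They became 1 (Pcna) without the filter, with the slide as a random block and with embryo means, 5 with quantile normalization (also Chek1, Ercc5 and Brca2) and 4 among probes detected on all 12 arrays (also Chek1 and Apex1). Leaving out 1 cell gave 0 to 3 calls: 0 without cell 1 of pair L in experiment 1 or cell 1 of pair G in experiment 2, Apex1 with Lig1 but not Pcna without cell 1 of pair D in experiment 1, Apex1 with Pcna but not Lig1 without cell 2 of pair H in experiment 2, and Pcna alone without cell 2 of pair D or cell 1 of pair I in experiment 1, or without cell 1 of pair D, cell 2 of pair G or cell 1 of pair H in experiment 2. With 1 other cell left out, Chek1 was called beside Pcna and Lig1 (adjusted p = 0.0353 in limma). For the settings that gave more than 2 calls, the share of all probes called is not given here. Those counts are therefore not read as a result about repair genes. Without both cells of pair D of experiment 2, chosen after seeing the data, the calls of Pcna and Lig1 stood. The causes were not tested. Over these 25 alternatives Pcna ranged from 1.19 to 1.64 (adjusted p from 0.00606 to 0.522) and Lig1 from -1.27 to -0.99 (adjusted p from 0.0213 to 0.380), with no change of sign. The median of all tested probes was 0.19, and became 0.0020 with scaling over all probes, 0.05 with quantile normalization, 0.09 with the lower floor, -0.11 with the floor per array and -0.76 with normexp. Of the 1353 probes called 660 were higher; other scalings and floors called 173 (22 higher, all probes), 427 (54, normexp), 368 (94, floor per array) and 596 (210, lower floor).

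Between embryos, the count of 0 members became 8 with normexp, 3 with the floor per array, 6 without the filter and 2 in experiment 2 alone. The share of all probes called under these settings is not given here, so the counts are not read as a result about repair genes. Leaving out 1 cell leaves an embryo without a twin. The count rose in some of those fits and is not given. Cell 2 against cell 1 gave 0 calls under all 24 alternatives; Ercc4 there turned to -0.053 with scaling over all probes. Cell number as a replicate block left 2 members called between experiments and 0 between embryos. Twin difference profiles of 15 pairs of embryos correlated at -0.08 to 0.26 (median -0.007), with 3 over 0.1. Whether same-numbered cells deviated together was not tested. The members' twin difference of 0.40 ranged from 0.30 to 0.60, and the 17 genes detected in every cell from 17 to 24.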
